A study of Mus musculus with 8 samples.

Results

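The miR-130 and miR-301 family was followed in myoblasts of old and young mice through its 4 precursors, mmu-mir-130a, mmu-mir-130b, mmu-mir-301a and mmu-mir-301b (written below without the mouse prefix). They were taken by name from a table of 1181 miRNA precursors, and all 4 were found. The libraries are small RNA of 4 old and 4 young C57BL/6J mice, taken from myoblasts, dividing cells that later fuse to form muscle fibres. Each mouse gave 1 library, named here by its group and its number in the labels (old 1 to old 4, young 1 to young 4). Ages, muscle and culture conditions are not given by the labels, and they name no treatment or genotype that separates the groups. The series title concerns miR-431 and old muscle, and the comparison asked here is whether the family differs between old and young cells.

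A miRNA is cut from a hairpin precursor, and either strand of the hairpin, the 5p or the 3p arm, can be loaded into an Argonaute protein. Bases 2 to 8 of the loaded arm, the seed, largely set which messenger RNAs it represses, so miRNAs with 1 seed can share targets. The miR-130 and miR-301 family is known for repressing Pparg, the main regulator of fat cell formation, and miR-130a for repressing growth-limiting homeobox genes in endothelial cells.

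The 3p arms carry the family seed. Those of 3 members are shown to let the members be told apart, with the seed in capitals (RefSeq, GRCm38.p6, 5′ to 3′), and miR-301b-3p is named only.
miR-130a-3p: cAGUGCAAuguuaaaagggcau
miR-130b-3p: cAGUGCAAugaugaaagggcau
miR-301a-3p: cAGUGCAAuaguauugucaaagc
miR-130a-3p and miR-130b-3p agree at 20 of 22 bases and differ by U11A and A13G, counted from the 5′ end with the base of miR-130a-3p first. miR-130b-3p and miR-301a-3p are alike over the first 9 bases. The 5p arms carry other seeds, and are shown because the deposited values do not separate the arms.
miR-130a-5p: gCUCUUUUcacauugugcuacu
miR-130b-5p: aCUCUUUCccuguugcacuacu
miR-301a-5p: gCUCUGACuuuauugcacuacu
miR-301b-5p: gCUCUGACuagguugcacuacu
The 5p arms of miR-301a and miR-301b have the same seed, CUCUGAC, and differ by U10A, U11G and A12G.

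Each deposited value belongs to a whole hairpin, so the 4 hairpins are given too (all 4 matched RefSeq by symbol), with the 3p seed in capitals. It occurs once in each.
mir-130a: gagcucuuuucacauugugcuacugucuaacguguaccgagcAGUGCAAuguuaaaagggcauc
mir-130b: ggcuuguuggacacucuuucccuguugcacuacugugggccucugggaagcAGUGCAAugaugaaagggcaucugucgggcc
mir-301a: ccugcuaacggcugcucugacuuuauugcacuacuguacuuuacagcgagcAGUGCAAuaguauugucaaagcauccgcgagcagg
mir-301b: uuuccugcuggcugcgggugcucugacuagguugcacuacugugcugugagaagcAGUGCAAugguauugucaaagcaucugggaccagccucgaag
The longest stretch that any 2 of these hairpins share is 16 bases, between mir-301a and mir-301b, and it is 12 bases between mir-130a and mir-130b. A full-length mature read without mismatches therefore belongs to 1 of them. How the authors treated reads with mismatches or reads that match several precursors is not stated by the labels.

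The members lie at 3 loci (GRCm38, the same build as mm10). mir-130a is on chromosome 2 (84741115 to 84741178, minus strand) and overlaps no other transcript of GENCODE M21. mir-301a is on chromosome 11 (87113004 to 87113089, plus strand) in an intron of Ska2, which encodes a protein of the spindle and kinetochore. mir-130b (17124061 to 17124142) and mir-301b (17124400 to 17124496) are on the minus strand of chromosome 16, 257 bases apart, in introns of 2610318N02Rik. No other precursor lies within 50 kb of a member on its strand.

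The deposited values are on a log2 scale, floored at 0. Their low values step as RPKM does (reads per kilobase of hairpin and per unit of library size). On that reading the libraries held 25.1 to 39.4 M reads, every young library more than any old one. A value is reported below as log2 abundance. RPM values, in which reads are scaled by library size alone, are the linear value times the hairpin's length in kilobases, and they rest on the same reading. As a sum the myogenic markers were abundant, with a log2 value of 16.2 to 16.6 in old and 15.2 to 17.2 in young libraries. mir-206, a muscle-specific miRNA, measured 15.90 ± 0.17 in the old and 15.72 ± 0.72 in the young group, and mir-133a-1 measured 13.34 ± 0.65 and 13.57 ± 1.25 (SD, n = 4 each). Of the 4 myogenic precursors compared, the difference was positive for 1 and negative for 3, with a median of -0.14, and 0 passed (limma). Not all of the list was abundant: mir-1a-1 and mir-1a-2, markers of differentiated muscle, were low, with means of 2.16 and 1.79 over the 8 libraries. Both were at 0 in young 4 and above 0 in the other libraries. By rank correlation over the compared precursors, old 3 was closest to young 3 (Spearman rho 0.977), and young 4 and old 4 were each other's closest library (0.958), so these libraries did not sort by their labels.

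The 4 members held the same order in all 8 libraries: mir-130a, then mir-130b, then mir-301a, then mir-301b. On the deposited scale, which is per length of precursor, mir-130a lay above mir-130b by a mean of 2.12 (SD 0.58 over the 8 libraries), from 1.15 in old 4 to 3.08 in young 1. mir-130b lay above mir-301a by 3.62 (SD 0.86), and mir-301a above mir-301b by 1.92 (SD 0.47). Each of these gaps was larger than its spread. Across libraries the values of mir-301a (lowest 3.98) and mir-301b (highest 4.49) overlapped, while those of mir-130a (lowest 9.86) and mir-130b (highest 9.61) did not, nor those of mir-130b (lowest 6.98) and mir-301a (highest 5.81). Counted as reads, with the precursor lengths of 64, 82, 86 and 97 bases taken out, the corresponding mean ratios were 3.38, 11.8 and 3.35.

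**Figure D1:**
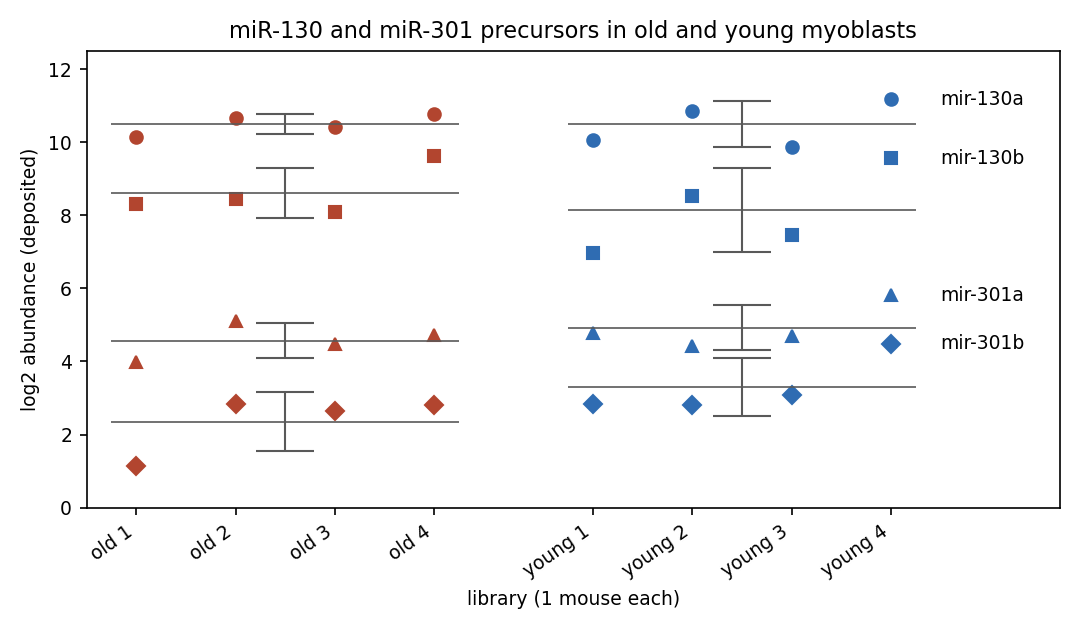
Log2 abundance as deposited (vertical axis) of the 4 precursors in each library (horizontal axis), old in red and young in blue; circles are mir-130a, squares mir-130b, triangles mir-301a and diamonds mir-301b, with the group mean and SD in grey. The order of the members is the same in all 8 libraries, and the old and young values of each member overlap.

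mmu-mir-130a, the most abundant member, measured 10.15, 10.65, 10.41 and 10.76 in old 1 to old 4. In young 1 to young 4 it measured 10.06, 10.84, 9.86 and 11.18. The old libraries all lay inside the range of the young ones, with young 3 lowest and young 4 highest. The means were 10.49 ± 0.27 in the old and 10.49 ± 0.63 in the young group (SD, n = 4 each). The difference, old minus young, was 0.0075 (SE 0.38, 95% interval -0.84 to 0.85), with p = 0.984 in limma, 0.995 after adjustment, and p = 0.971 by a two-sided exact permutation test. The interval still allows old libraries from 0.56 to 1.80 times the young level. Its sign turned when old 2, old 4, young 1 or young 3 was left out, with values down to -0.20. Of the 359 compared precursors 21.2% had a smaller within-group SD than its 0.48. Its reads, 1945 to 5852 per library, leave a counting error of 1.31% to 2.27%.

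mmu-mir-130b measured 8.30, 8.45, 8.08 and 9.61 in old 1 to old 4. In young 1 to young 4 it measured 6.98, 8.54, 7.47 and 9.56. Old 4 and young 4 stood above the other libraries, young 1 and young 3 below all the old ones, and the groups overlapped. The means were 8.61 ± 0.68 in the old and 8.14 ± 1.15 in the young group (SD, n = 4 each). The difference was 0.47 (SE 0.61, 95% interval -0.89 to 1.83), with p = 0.455 in limma, 0.995 after adjustment, and p = 0.571 by a two-sided exact permutation test. The range over the 8 libraries was 6.19-fold, against 2.50-fold for mir-130a. Among the compared precursors 70.2% had a smaller within-group SD than its 0.95. Single libraries moved the difference by over 1.5 times, to 0.14 without old 4, 0.087 without young 1, 0.25 without young 3 and 0.95 without young 4. Without both old 3 and young 4, a pair chosen after seeing the data, it was 1.12 (limma, adjusted p = 0.401).

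mmu-mir-301a measured 3.98, 5.12, 4.47 and 4.72 in old 1 to old 4. In young 1 to young 4 it measured 4.78, 4.41, 4.71 and 5.81. Young 4 was the highest library and old 1 the lowest, and the other 6 were mixed by group. The means were 4.57 ± 0.48 in the old and 4.93 ± 0.61 in the young group (SD, n = 4 each). The difference was -0.36 (SE 0.48, 95% interval -1.43 to 0.72), with p = 0.475 in limma, 0.995 after adjustment, and p = 0.457 by a two-sided exact permutation test. It was -0.16 without old 1, -0.061 without young 4, and larger at -0.54 without old 2. Without both old 3 and young 4, a pair chosen after seeing the data, it was -0.027 (limma, adjusted p = 0.991). These values rest on few reads, 38 in old 1, 190 in young 4 and 50 to 78 in the other libraries.

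mmu-mir-301b measured 1.14, 2.83, 2.65 and 2.80 in old 1 to old 4. In young 1 to young 4 it measured 2.85, 2.81, 3.08 and 4.49. Old 1 stood below and young 4 above all other libraries, and between them old 2, at 2.83, lay above young 2, at 2.81, so that the groups overlapped only there. The means were 2.36 ± 0.81 in the old and 3.31 ± 0.80 in the young group (SD, n = 4 each). They differed by -0.95 (two-sided exact permutation p = 0.0571). Only 1 library reached a linear value of 10, so mir-301b was not among the compared precursors. In a limma fit without this filter, of all 781 precursors above 0 in any library, the 95% interval was -2.39 to 0.49 (adjusted p = 0.982). The old values correspond to 6, 18, 16 and 17 reads and the young ones to 21, 22, 27 and 86. The counting error alone was 40.9% in old 1, 19.3% in young 3 and 10.8% in young 4. The difference was -0.55 without old 1 and -0.56 without young 4. Without young 2 the remaining groups did not overlap and it was -1.12 (two-sided exact permutation p = 0.0286, as low as these libraries allow). Leaving out young 2 removed the only overlap, which by itself puts this p at its lowest, so no conclusion is drawn from it.

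None of the 3 compared members passed an adjusted p of 0.05, and of all 359 compared precursors 0 did (limma, 0%). At an unadjusted p under 0.05 there were 4 precursors (1.11%), none of them a member. Groups that did not overlap were found for 3 precursors (0.836%), again none a member. The differences of the members, 0.0075, 0.47 and -0.36, stand beside a median of -0.053 over all compared precursors and a median size of 0.25. An exact permutation test of 4 old against 4 young libraries cannot go below p = 0.0286.

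**Figure D2:**
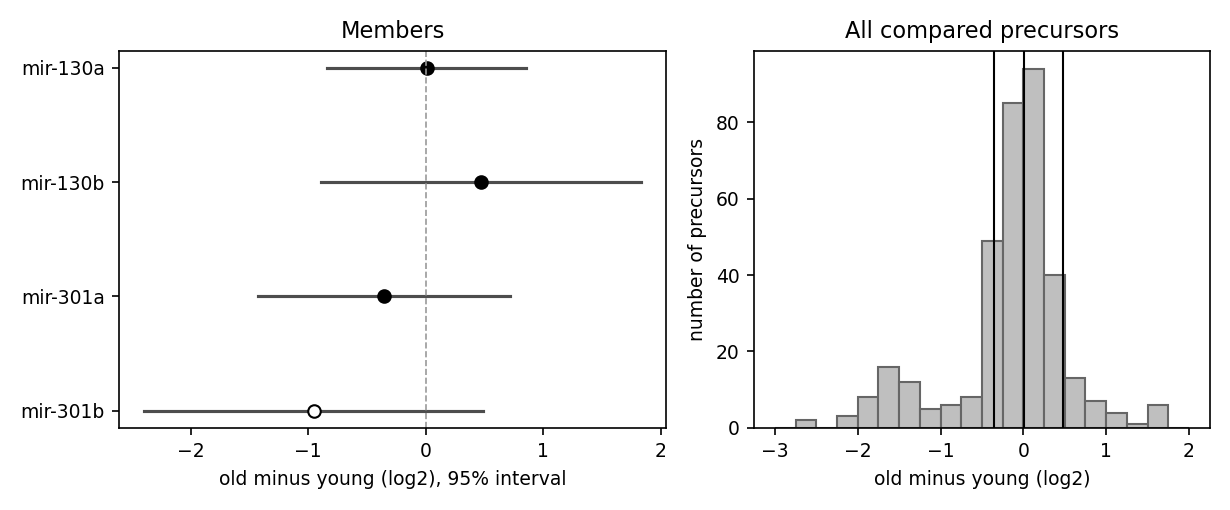
Left, the difference old minus young in log2 abundance of each member with its 95% interval from limma (filled points from the fit of the 359 compared precursors, the open point for mir-301b from the fit without a filter); right, the distribution of this difference over the 359 compared precursors, with black lines at mir-130a, mir-130b and mir-301a. All 4 intervals include 0, and the 3 lines fall within the central peak or at its edge.

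Added up as reads, the family held 100.1, 135, 112 and 178 RPM in old 1 to old 4. In young 1 to young 4 it held 81.7, 150, 77.1 and 217 RPM. The lowest and the highest library were both young, and the means were 131 ± 34.4 RPM in the old and 132 ± 66.3 RPM in the young group (SD, n = 4 each). Most of these reads were mir-130a, with 72.2 ± 6.94% in old and 76.8 ± 6.32% in young libraries. mir-130b supplied 25.7 ± 7.31% and 20.1 ± 6.51%, and its share was highest in old 4, at 36.0%, and lowest in young 1, at 12.7%. mir-301a supplied 1.64 ± 0.43% and 2.31 ± 0.80%, and mir-301b 0.41 ± 0.15% and 0.84 ± 0.28% (SD, n = 4 each). These shares have no test of their own, since the members were chosen together.

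**Figure D3:**
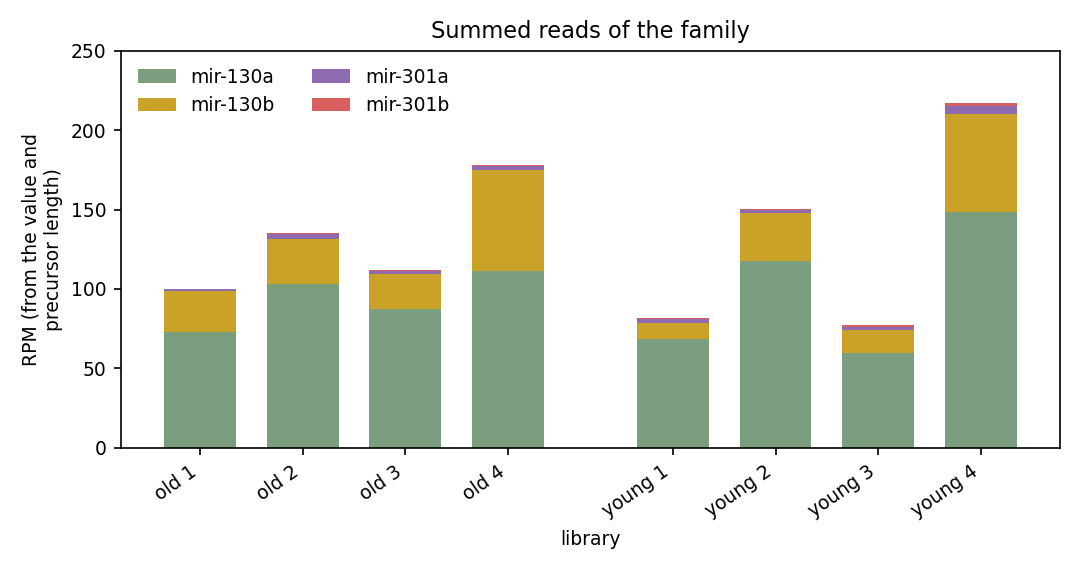
RPM (reads scaled by library size) of the 4 precursors (vertical axis, stacked bars) in each library (horizontal axis), from the deposited value and the precursor length. The sum runs from 77.1 in young 3 to 217 in young 4, and mir-130a makes up between 62.3% and 83.6% of it.

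A ratio between members within a library does not move with library scaling, and the hairpins mir-130b and mir-301b, which lie next to each other on 1 strand, are given first. mir-130b exceeded mir-301b on the log2 scale by 7.16, 5.62, 5.43 and 6.81 in old 1 to old 4. In young 1 to young 4 it exceeded mir-301b by 4.13, 5.73, 4.39 and 5.07. Young 2, at 5.73, was the only young library above any old one. The ratio thus ran from 17.5-fold in young 1 to 143-fold in old 1, and its means were 6.26 ± 0.86 in the old and 4.83 ± 0.72 in the young group (SD, n = 4 each). The difference of 1.43 did not pass (two-sided exact permutation p = 0.0857, adjusted p = 0.229 over the 6 pairs of members). The old 1 ratio rests on 6 reads of mir-301b.

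The other 5 ratios did not pass either. mir-301a over mir-301b was 2.22 ± 0.46 in the old and 1.62 ± 0.25 in the young group, apart by 0.60 (two-sided exact permutation p = 0.0857, adjusted p = 0.229). mir-130a over mir-301b was 8.14 ± 0.59 and 7.18 ± 0.61 (difference 0.96, exact permutation p = 0.114, adjusted p = 0.229), and mir-130b over mir-301a was 4.04 ± 0.70 and 3.21 ± 0.89 (difference 0.83, exact permutation p = 0.200, adjusted p = 0.30). mir-130a over mir-130b was 1.88 ± 0.53 in the old and 2.35 ± 0.60 in the young group, apart by -0.47 (exact permutation p = 0.343, adjusted p = 0.371). mir-130a over mir-301a was 5.92 ± 0.28 and 5.56 ± 0.59 (difference 0.36, exact permutation p = 0.371, adjusted p = 0.371; SD, n = 4 each throughout). Leaving out 1 library moved 4 of these differences by over 1.5 times. mir-130a over mir-130b was -0.22 without old 4 or without young 1 and -0.71 without young 4, and mir-130b over mir-301a was 0.54 without old 4 and 0.49 without young 1. mir-130a over mir-301a was 0.65 without young 2 and 0.23 without young 3, and mir-301a over mir-301b was 0.39 without old 1. The 6 ratios share members and are not separate measurements.

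**Figure D4:**
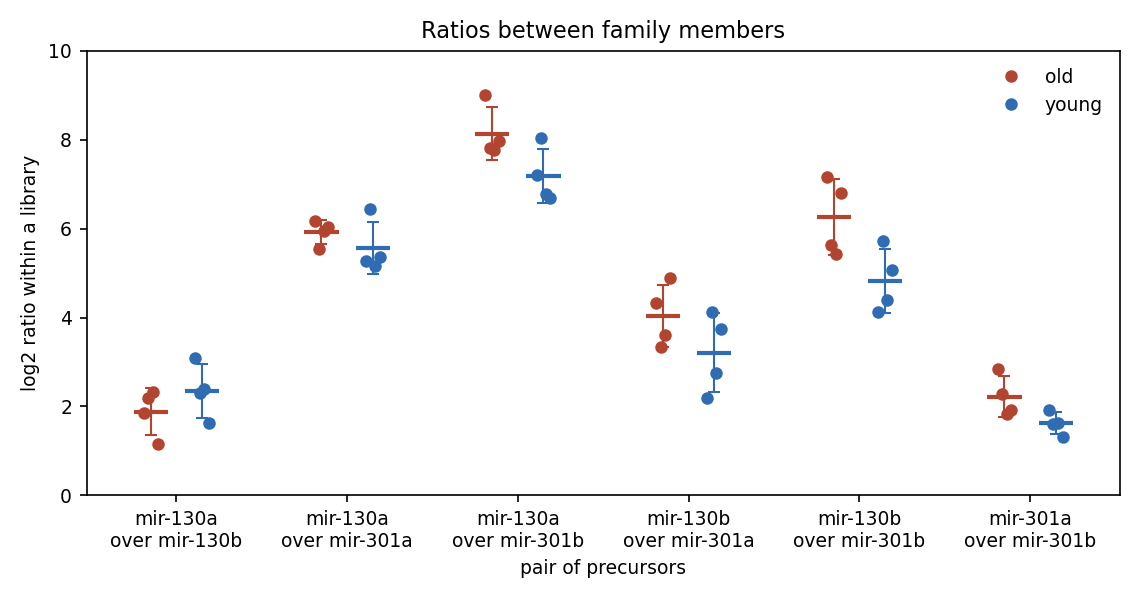
Log2 ratio within a library (vertical axis) for the 6 pairs of members (horizontal axis), old in red and young in blue, with the group mean and SD. For mir-130b over mir-301b the old values are 5.43 to 7.16 and the young ones 4.13 to 5.73; the groups overlap in all 6 pairs.

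Over the 8 libraries the members varied together in 2 of the 6 pairs by Pearson's r and in 1 by Spearman's rho, and none of these was the neighbouring pair. Libraries share their scaling, and over all 64261 pairs of compared precursors the median r was 0.22. mir-130a and mir-130b had a Pearson r of 0.85 (exact permutation p = 0.00744, adjusted p = 0.0357 over 6 pairs) and a Spearman rho of 0.88 (exact permutation p = 0.00724, adjusted p = 0.0435). Of the 356 compared precursors outside the family, 8.99% had a higher r with mir-130a than mir-130b had, and 14.04% had a higher r with mir-130b than mir-130a had. mir-301a and mir-301b had an r of 0.91 (exact permutation p = 0.0119, adjusted p = 0.0357) and a rho of 0.74 (exact permutation p = 0.0458, adjusted p = 0.138). Of the 356 others, 0% had a higher r with mir-301a and 0.56% with mir-301b. The neighbours mir-130b and mir-301b had an r of 0.32 (exact permutation p = 0.491, adjusted p = 0.491) and a rho of -0.071 (exact permutation p = 0.882). For the remaining pairs r was between 0.38 and 0.57 (exact permutation p from 0.140 to 0.347, adjusted p from 0.220 to 0.416) and rho between 0.071 and 0.29 (exact permutation p from 0.501 to 0.882). Whether r differs between pairs was not tested.

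The r of both pairs moved with the scaling of libraries or with the libraries left out. All members share the scaling of a library. A median-ratio rescaling used the compared precursors above 0 in all libraries. For each library it took the median of their deviations from their own means over the libraries. This median, between -0.33 (young 1, which was raised) and 0.58 (young 4, which was lowered), was subtracted from the log2 values. After this rescaling, r of mir-130a and mir-130b was 0.46 (exact permutation p = 0.256, adjusted p = 0.768). That of mir-301a and mir-301b was 0.79 (exact permutation p = 0.00546, adjusted p = 0.0327). Without young 3 and young 4, the libraries farthest from the median of mir-130a, r of the first pair was 0.76 over 6 libraries (exact permutation p = 0.0431, adjusted p = 0.258). Without old 1 and young 4, the libraries farthest from the median of mir-301a, r of the second pair was 0.29 (exact permutation p = 0.624, adjusted p = 0.624). Leaving out the extremes of a member narrows its range, which can lower r by itself. These values therefore cannot decide whether a relation rests on those libraries. Centred on each group mean, r was 0.89 and 0.92.

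**Figure D5:**
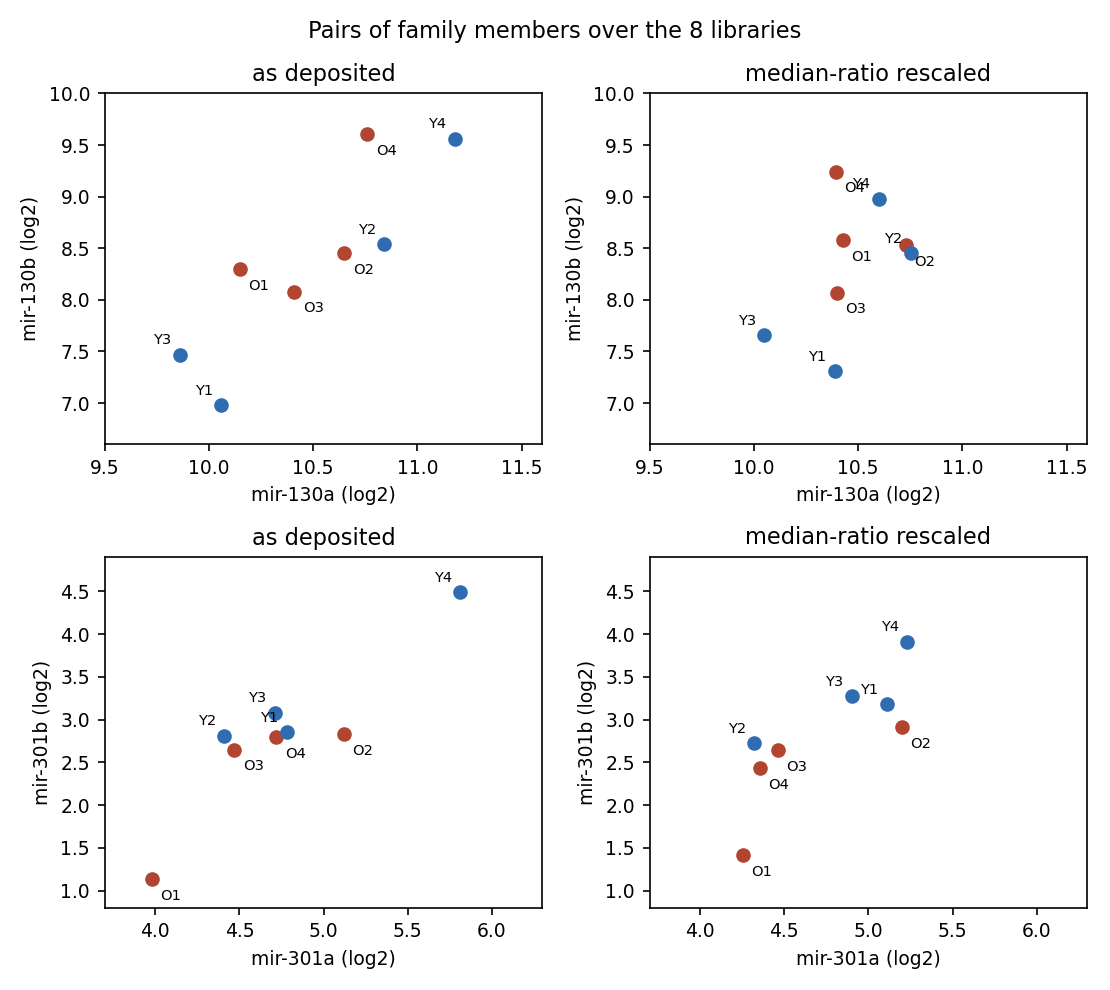
Log2 abundance of mir-130b against mir-130a (top) and of mir-301b against mir-301a (bottom), as deposited (left) and after median-ratio rescaling (right); each point is 1 library, old (O) in red and young (Y) in blue, with its number. Rescaling narrows mir-130a to 10.05 to 10.75, while old 1 and young 4 stay at the ends of the lower panels.

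In proportion, the SD of mir-130a shrank most among the 4 members with median-ratio rescaling, from 0.45 over the 8 libraries as deposited to 0.23. Its range went from 1.32 to 0.70, and that of mir-301a, about as much in proportion, from 1.83 to 0.97. The SD of mir-130b went from 0.91 to 0.65, that of mir-301a from 0.54 to 0.42 and that of mir-301b from 0.90 to 0.73. After rescaling mir-130b still ran from 7.31 in young 1 and 7.66 in young 3 to 8.98 in young 4 and 9.24 in old 4. mir-486, a muscle-enriched miRNA with a large share of all reads, had its lowest level in young 4 (164100 RPM), where mir-130a was highest, and its highest in young 1 (579406 RPM), where mir-130a was second lowest. Its part in the spread of mir-130a was not tested. When each library was set to its sum outside mir-486 and the antisense mir-3107, the SD of mir-130a was 0.28.

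The precursors most like each member were found by the SD of the log2 ratio over the 8 libraries, a small SD meaning a steady ratio. mir-130a ran closest to mir-125b-2 (SD 0.12), mir-125b-1 (SD 0.13) and mir-181d (SD 0.16), against a median SD of 0.57 over all compared precursors outside the family. The copies mir-125b-1 and mir-125b-2 give the same mature 5p arm, so they are not separate cases. mir-130b ran closest to mir-187 (SD 0.22), mir-1945 (SD 0.31) and mir-872 (SD 0.36), against a median of 0.82. mir-301a ran closest to mir-3473d (SD 0.24) and to mir-92a-1 and mir-18a, hairpins of 1 shared primary transcript (SD 0.25 each), against a median of 0.69. mir-301b ran closest to mir-3473d (SD 0.44), mir-672 (SD 0.46) and mir-5099 (SD 0.48), against a median of 0.92, and its ratio to mir-301a had an SD of 0.47. The ratio of mir-130a to mir-130b had an SD of 0.58, close to the median for mir-130a. The ratio of the neighbours mir-130b and mir-301b had an SD of 1.06, above the median for either. These are descriptions over 8 libraries, which share their scaling.

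Mouse miRNAs outside the 4 members carry the same seed, and they are shown because they could add to the family.
miR-130c: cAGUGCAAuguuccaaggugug
miR-721: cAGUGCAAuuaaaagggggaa
miR-6341: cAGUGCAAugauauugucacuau
miR-6389: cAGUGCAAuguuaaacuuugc
All 4 of their precursors were listed at 0 in all 8 libraries.

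miR-19 and miR-148 miRNAs carry part of the same stretch in a shifted place, shown in capitals.
miR-19a-3p: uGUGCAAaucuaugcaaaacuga
miR-148a-3p: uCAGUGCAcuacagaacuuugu
miR-148b-3p: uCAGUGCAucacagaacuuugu
Of the 6 listed precursors of this kind (mir-19a, mir-19b-1, mir-19b-2, mir-148a, mir-148b and mir-152) 4 were compared. Their differences were positive for 2 and negative for 2, with a median of -0.11, and 0 passed (limma). mir-148b measured 10.78 ± 0.76 in old and 11.13 ± 0.49 in young libraries, near the level of mir-130a, and mir-148a measured 8.62 ± 0.71 and 9.08 ± 1.07, near that of mir-130b (SD, n = 4 each).

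Markers of other cell types were read beside the members. The fibroblast and smooth muscle list (mir-143, mir-145a, mir-199a-1, mir-199a-2 and mir-214) had all 5 members above 0 in every library. Its summed log2 value was 15.4 to 15.8 in old and 14.6 to 15.6 in young libraries, lowest in young 1, the library where mir-130b was lowest too. At the other end the sum did not follow mir-130b. The sum was highest in old 1 (15.84) and old 2 (15.79), against 15.59 in old 4 and 15.47 in young 4, where mir-130b was highest. All 5 had higher means in old libraries, with a median difference of 0.29, and 0 passed (limma). The endothelial precursors mir-126a and mir-126b summed to 4.41 to 5.51 in old and 4.13 to 6.28 in young libraries, highest in young 4 and old 4 and lowest in young 1 and young 3, as mir-130b was. The 4 blood markers read (mir-451a, mir-144, mir-223 and mir-150) summed to 3.05 to 4.47 in old and 1.97 to 4.32 in young libraries, likewise highest in old 4 and young 4 and lowest in young 1 and young 3. In old libraries this sum was that of mir-150, a lymphocyte miRNA, at 3.75 ± 0.58, since the other blood markers read were at the floor and counted as 0. In young libraries mir-150 measured 3.03 ± 1.45 and mir-451a 0.2225 ± 0.445, while mir-144 and mir-223 were at 0 in all libraries. The epithelial list summed to 4.91 to 8.04 in old and 5.89 to 7.44 in young libraries, highest in old 4 and young 4 too, and lowest in old 1. It was carried by mir-205, at 5.94 ± 1.49 and 6.33 ± 0.75 (SD, n = 4 each), with mir-200a and mir-429 at 0 in all libraries. These sums are on the deposited scale. The median-ratio shift, shared by all precursors of a library, was likewise highest in young 4 (0.58) and old 4 (0.37). It was lowest in young 1 (-0.33), followed by old 1 (-0.28) and young 3 (-0.19). The part of this scaling in the order of the sums, and of other cells in the values of the family, was not tested. In bulk samples fewer cells of a type and less RNA per cell cannot be told apart.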

How the data were processed

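Myoblast small RNA of 4 old and 4 young mice (C57BL/6J) was sequenced on an Illumina GAIIx after mirVana isolation, per the labels' protocols. The submitters' processing notes name BWA and mm10, with no version or role; the sources used here do not give counting, trimming or filters. The authors deposited log2 values for 1181 precursors, floored at 0 (400 are at 0 in all libraries); no label states their scale. Low values (12 reads or fewer), made linear and multiplied by hairpin length (1175 lengths from RefSeq), gave whole reads in 99.1% to 100% of cases (tolerance 0.1 of a read, where chance gives 20%), as RPKM behaves, and library sizes and reads follow from it. Reads are not independent molecules, and their errors cover counting only.

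limma 3.58.1 (R 4.3.3, mean-variance trend) was run on the deposited log2 values of the 359 precursors that reached a linear value of 10 in 4 or more libraries, with Benjamini-Hochberg adjustment over all 359 and a threshold of 0.05. Ratios and single members were tested by two-sided exact permutation (70 arrangements) and correlations over all 40320 orders, adjusted over the 6 pairs. The fit was also run on simulated data with known changes and independent noise for each precursor. Those data lack the library shifts seen here, and no result is drawn from them. The labels number separate mice, and p-values measure the spread between these libraries. Members and lists were chosen with earlier results of these data known. The text names the 4 members, other precursors with their seed, the 3 closest precursors to each, and up to 2 abundant members of each list; others are named to define a list or, chosen after their values were seen, because they are at 0 in 1 or more libraries. Alternatives were pseudocounts, filters, scalings, variance models, the replicate block and leaving out libraries. All else used scipy 1.17.1, pandas 2.3.3, numpy 2.4.6 and matplotlib 3.10.9 under Python 3.11.15.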

Additional observations from a re-analysis of the deposited data

Results flagged for a closer look

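Among 20 sets of 4 libraries examined for a library far from the rest (4 members and 6 ratios in each group), 3 had one. Chance gives about 1 in 20 for separate sets. These sets share members, and all 3 hold mir-301b, so their count cannot be set against that rate. mir-301b stood apart in old 1, at 1.14 with its gap to the next library being 0.89 of the range. It also stood apart in young 4, at 4.49 with a gap of 0.84 of the range. The log2 ratio of mir-130a over mir-301b stood apart in old 1, at 9.01 with a gap of 0.84 of the range, and shares the low mir-301b value of that library.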

How the results depend on the processing

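The count of precursors past the threshold, 0 in the main fit, was 0 in 19 of 20 alternatives, including each library left out in turn (0 to 0). It was 33 without both old 3 and young 4, an alternative chosen after seeing the data, and none of the members was among them. Old 3 and young 4 were each closest to a library of the other group. Leaving out such libraries can by itself widen differences between the groups. With the replicate number as a block the differences of mir-130a, mir-130b and mir-301a were 0.0075, 0.47 and -0.36 (limma, adjusted p = 0.992, 0.939 and 0.939), and the ratio of mir-130b over mir-301b differed by 1.43 (exact sign-flip permutation p = 0.25, adjusted p = 0.30). The ratios mir-130a over mir-130b and mir-301a over mir-301b had 1 sign in all 4 same-numbered pairs, which gives p = 0.125 (exact sign-flip permutation, adjusted p = 0.30), as low as 4 pairs allow. The block changed no call: 0 precursors passed with it, with 39 at an unadjusted p under 0.05 against 4 without it. The labels pair no mice by number. The deviations of same-numbered libraries from their group means correlated at -0.064, 0.43, 0.66 and 0.58 for numbers 1 to 4, and each old library but old 1 correlated best with the young library of its number. Leaving out 1 library gave -0.20 to 0.24 for mir-130a, 0.087 to 0.95 for mir-130b, -0.54 to -0.061 for mir-301a and -1.12 to -0.55 for mir-301b. Without both old 3 and young 4 the differences were 0.27 for mir-130a, 1.12 for mir-130b, -0.027 for mir-301a and -0.66 for mir-301b. Quantile rescaling gave 0.18 for mir-130a and -0.15 for mir-301a, array weights 0.17 and -0.23, and the sum outside mir-486 and mir-3107 0.21 and -0.16. mir-130b was 0.68, 0.65 and 0.67 in the same settings. mir-301b was -0.75 with the sum outside mir-486 and mir-3107 (two-sided exact permutation p = 0.20). It was -0.92 with median-ratio rescaling (two-sided exact permutation p = 0.0571). With log2(linear value + 10) mir-301b was -0.40, and the ratios of mir-130a, mir-130b and mir-301a over mir-301b were 0.41, 0.85 and 0.14 against 0.96, 1.43 and 0.60. The ratios kept their sign in all 72 alternatives and none passed the adjusted threshold, but their sizes moved, with 1 library left out, over -0.71 to -0.22 for mir-130a over mir-130b, 0.23 to 0.65 for mir-130a over mir-301a, 0.49 to 1.13 for mir-130b over mir-301a and 0.39 to 0.73 for mir-301a over mir-301b. Correlations moved most: with median-ratio rescaling r was 0.46 for mir-130a and mir-130b, -0.27 for mir-130b and mir-301a and -0.18 for mir-130b and mir-301b. With each library set to its sum outside mir-486 and mir-3107, an alternative chosen after seeing the data, r was 0.67, -0.0056 and -0.049 for the same pairs and 0.78 for mir-301a and mir-301b (exact permutation, adjusted p = 0.0707). Without the 2 farthest libraries r was 0.76 for mir-130a and mir-130b and 0.29 for mir-301a and mir-301b. The cause was not tested. Depth limits mir-301b, with 6 to 86 reads. mir-301b has no value in fits with another variance model, quantile rescaling or the block, since it did not pass the filter.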
